A study of Homo sapiens with 6 samples.

Results

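The genes of DNA replication and mitosis were compared between MCF10.AT1 and MCF10.AT1-R. MCF10.AT1 is a preneoplastic derivative of the human breast epithelial line MCF10A that carries an activated HRAS gene, and MCF10.AT1-R was obtained from it by selection in fluvastatin. The members were 51 genes named by symbol, 20 of DNA replication and 31 of mitosis, out of 81496 symbols on the arrays. Per gene, the probe set with the highest mean over the 5 arrays compared was used. The rule names genes by function and uses no measured difference, though the list was drawn up with earlier results of these data known. MCF10.AT1 was labelled as untreated and sensitive to fluvastatin, a statin that inhibits HMG-CoA reductase, and MCF10.AT1-R as resistant after incremental doses from 1 to 20 µM. Apart from this selection the labels give no difference of genotype between the lines. They do not state whether MCF10.AT1-R cells were in fluvastatin when RNA was taken, or whether the resistant line is a clone or a pool. Total RNA of 3 cultures of each line, labelled as biological replicates, was measured on Clariom D arrays, which read coding and noncoding transcripts with short probes. Values are log2 intensities, and a difference is MCF10.AT1-R minus MCF10.AT1 unless stated otherwise.

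Dividing cells copy their DNA in S phase and separate the copies in mitosis. In S phase the MCM2-7 helicase, loaded at origins by CDC6 and CDT1, unwinds the template, and DNA polymerases work with the clamp PCNA on nucleotides supplied by ribonucleotide reductase and thymidylate synthase. In mitosis cyclin B with CDK1, the Aurora and Polo kinases, spindle motors, kinetochores and the spindle checkpoint align and separate the chromosomes, and cytokinesis divides the cell. RNA of replication genes is driven at the G1 to S transition mainly by E2F factors, and RNA of mitosis genes peaks later, in G2 and M phase, through promoter elements read by the DREAM, B-MYB and FOXM1 proteins. In bulk RNA both lists are therefore commonly read as a measure of how many cells are cycling.

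Of the 6 arrays, 5 were compared: A01 and A02 of MCF10.AT1, and B02, B03 and B04 of MCF10.AT1-R. The study removed the third MCF10.AT1 array, A03, as an outlier, and it is given apart. Pairwise correlations over the transcript probe sets lay between 0.967 and 0.977 among the 5 arrays, and between 0.779 and 0.795 for A03. The positive control probe sets averaged 3.77 on A03, and the other arrays gave 8.05 to 8.18 with B03 as the lowest. On A03 the 51 members read between 1.01 and 5.75, below all 5 other arrays for 48 of them, and the exceptions were CENPA (4.93), BIRC5 (5.75) and CDT1 (5.37). All 8 markers of breast epithelium examined, KRT5, KRT14, KRT17, KRT6A, TP63, ITGB4, CDH1 and EPCAM, were above the negative controls on all 5 arrays. The sum of their log2 values was 55.3 to 56.2 on the MCF10.AT1 arrays and 70.1 to 70.9 on the MCF10.AT1-R arrays. Each of the 8 was higher on every MCF10.AT1-R array. Their differences ran from 0.78 for EPCAM (limma adjusted p = 0.341) to 4.08 for KRT17 (limma adjusted p = 3.62e-35). Of the markers of other cell types, 3 of 7 fibroblast genes (COL1A1, COL1A2 and COL3A1), 2 of 4 leukocyte genes (CD3E and CD68) and 2 of 4 endothelial genes (PECAM1 and VWF) were above the negative controls on all 5. The leukocyte marker PTPRC and the endothelial marker KDR were within the negative controls on every one of these arrays. The summed values in MCF10.AT1 and MCF10.AT1-R were 30.2 to 30.7 and 27.6 to 28.7 for the fibroblast list, 9.76 to 10.9 and 10.4 to 12.5 for the leukocyte list, and 13.4 to 13.8 and 11.6 to 12.7 for the endothelial list. DCN, a fibroblast marker that was above the negative controls on both MCF10.AT1 arrays and not on every MCF10.AT1-R array, read 5.31 and 5.32 beside 3.49, 2.76 and 3.25 and fell by 2.15 (limma adjusted p = 3.88e-09). PECAM1 fell by 1.12 (limma adjusted p = 0.0307). These marker p-values are of the main test below, which gave every probe set the same SE. With the low-expression filter alone the limma adjusted p was 0.000885 for KRT17, 0.292 for EPCAM, 0.0248 for DCN and 0.123 for PECAM1. PECAM1 thus lost its call there, and kept it with the trend option below (adjusted p = 0.0205). The other fibroblast and endothelial markers overlapped between the lines: COL1A1, COL1A2, COL3A1, PDGFRA, PDGFRB, LUM, VWF, CDH5 and KDR. Of the leukocyte markers only LYZ did not overlap, and it was higher in MCF10.AT1-R at values within the negative controls. The part of these markers in the results below was not tested.

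Mean values were lower in the resistant line for 28 of the 31 mitosis genes. They were lower for 15 of the 20 replication genes and higher for 5, with a smaller median difference. For 21 of the 31 mitosis genes every MCF10.AT1-R array was below both MCF10.AT1 arrays, for none was every one above, and for 10 the arrays overlapped. For the 20 replication genes these counts were 9, 2 and 9. Over all 47805 symbols above the low-expression limit, the arrays separated in the same way with MCF10.AT1-R lower for 13.8% and higher for 13.7%. Of these symbols 23867 were above the negative controls on all 5 arrays, as were all 51 members. Among the 23243 symbols within the members' range of levels, 3703 (15.9%) were lower and 4001 higher. The median difference was -0.36 over the mitosis genes and -0.13 over the replication genes, beside -0.01 over all 47805 symbols. Without B03 the first count was 21 of 31 mitosis genes and 11 of 20 replication genes, where 19.6% of all symbols had both remaining MCF10.AT1-R arrays below. RNA from fewer cycling cells and less of this RNA per cell cannot be told apart in bulk samples.

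Few of these differences passed the test of single genes. With low and invariant probe sets removed, limma tested 19 of the mitosis genes and 7 of the replication genes, and at FDR 5% it called 1 mitosis gene, CENPF, and 0 replication genes. In that test 1.20% of all probe sets were called, 0.447% as lower. At an unadjusted p under 0.05 there were 4 of 19 mitosis genes and 0 of 7 replication genes, beside 8.91% of all tested symbols. Within the members' range of levels it was 1644 of 15373 tested symbols. The filter on invariant probe sets left 25 members untested, all of them genes whose 5 arrays differed little. With the low-expression filter alone all 51 were tested and 0 were called, with a lowest adjusted p of 0.0943 (limma, Benjamini-Hochberg) and with 9 of 31 mitosis genes and 1 of 20 replication genes lower at an unadjusted p under 0.05, beside 4.50% of all symbols. That fit gives the 95% intervals printed below.

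The count of calls depended on how the spread of a gene was estimated. The main test gave all probe sets the same SD, 0.34, and hence the same SE, 0.31. With limma's trend option the SE followed the expression level, and was 0.0774 for PLK1 and 0.256 for NUF2. In both of these fits the spread of a gene's own arrays had no part in its SE. With the trend 7 mitosis genes were called, all lower: TOP2A, PLK1, KIF11, KIF20A, CENPF, TPX2 and NUF2, where 0.981% of all probe sets were called lower. Among symbols within the members' range of levels this fit called 326 of 15373 tested as lower. With the trend and the low-expression filter alone the SE also drew on a gene's own arrays. There 5 of these mitosis genes were called, PLK1, KIF11, KIF20A, CENPF and TPX2, where 0.474% of all probe sets were called lower. TOP2A and NUF2 were not (limma adjusted p = 0.0901 and 0.259). Within the members' range of levels this second trend fit called 237 of 23243 symbols as lower. No replication gene was called in either fit.

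**Figure D1:**
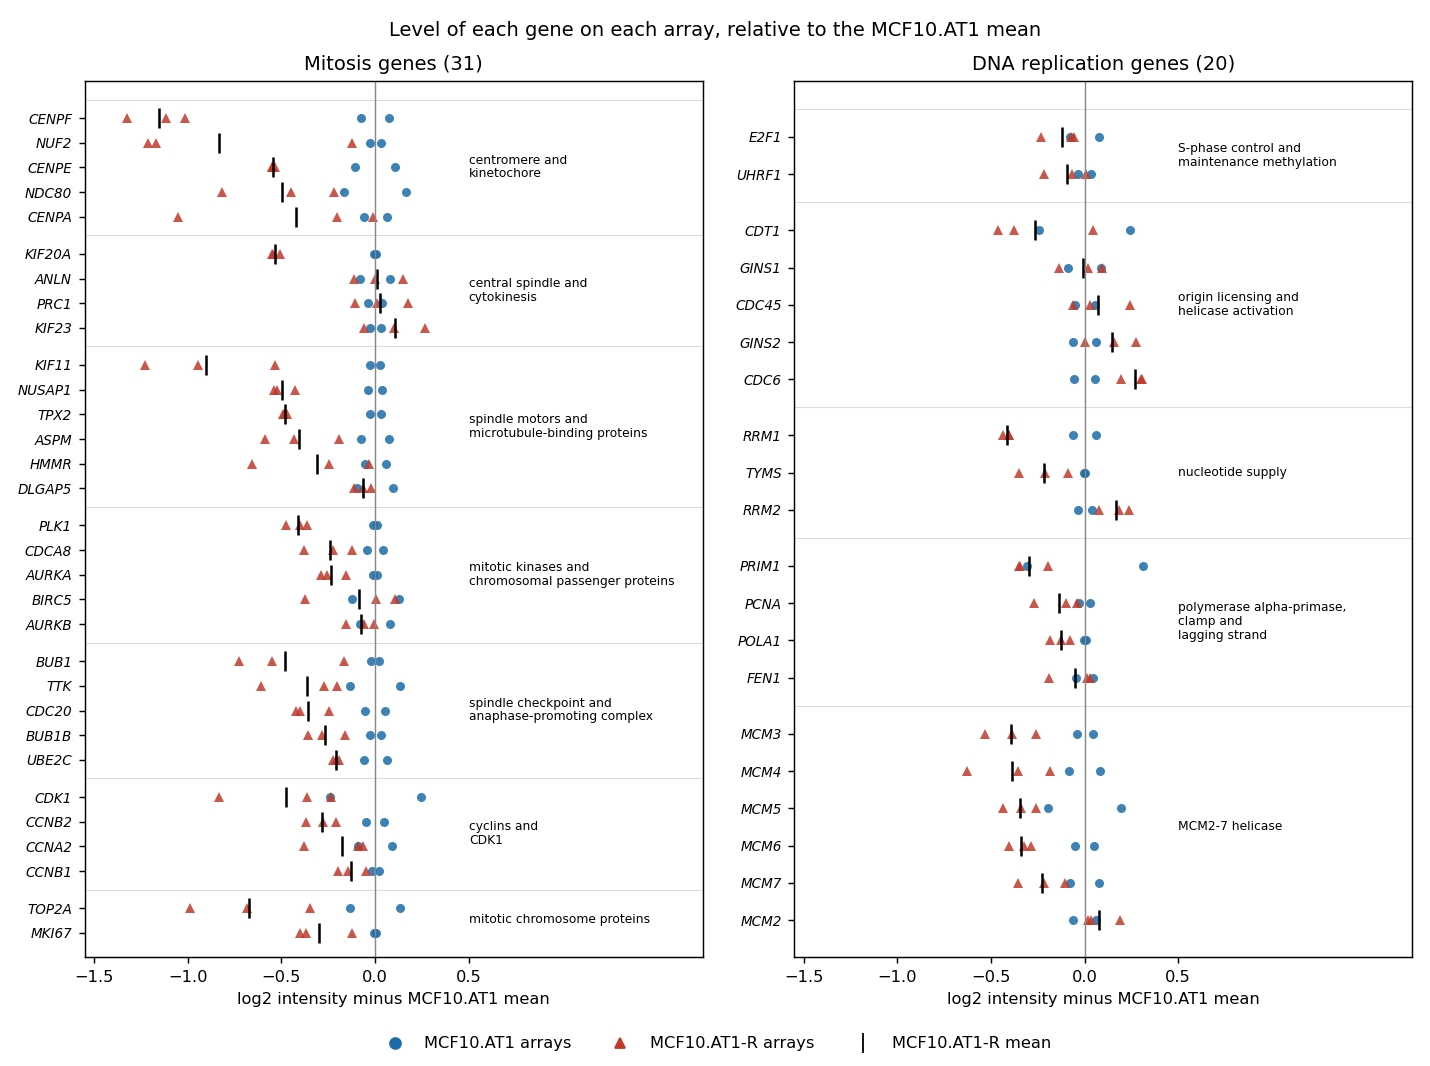
Log2 intensity of each member on each array minus the MCF10.AT1 mean (horizontal axis), for the 31 mitosis genes (left) and the 20 replication genes (right), grouped by role. Circles are the 2 MCF10.AT1 arrays, triangles the 3 MCF10.AT1-R arrays and vertical marks their mean. CENPF has the largest difference, -1.15, and the replication genes lie between -0.42 and 0.27.

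Promoters of some members are shown here because both lists are known for control at the start site. The sequences are RefSeq's for GRCh38.p14, and each covers the 200 bases before the transcript start, 5′ to 3′ on the strand of the gene. CENPF, called in the main test, lies on the plus strand and the stretch is chr1:214602995-214603194. KIF11 and PLK1, called with both trend fits, lie on the plus strand at chr10:92592930-92593129 and chr16:23678689-23678888. In these 3 the capitals mark the cell cycle homology region (CHR), searched as TTTGAA or TTCGAA, and the CCAAT box bound by NF-Y, both searched on either strand. KIF20A, also called with both trend fits, is not printed, and its window had CCAAT boxes and no CHR. TPX2, called with both as well, had no window.
CENPF: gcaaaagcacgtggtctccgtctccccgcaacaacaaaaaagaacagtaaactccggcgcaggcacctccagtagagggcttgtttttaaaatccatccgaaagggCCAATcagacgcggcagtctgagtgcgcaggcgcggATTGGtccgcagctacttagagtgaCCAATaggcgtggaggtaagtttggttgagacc
KIF11: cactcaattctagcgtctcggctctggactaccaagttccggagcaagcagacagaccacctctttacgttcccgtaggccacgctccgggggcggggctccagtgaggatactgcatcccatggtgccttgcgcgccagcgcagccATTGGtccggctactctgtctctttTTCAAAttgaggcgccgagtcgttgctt
PLK1: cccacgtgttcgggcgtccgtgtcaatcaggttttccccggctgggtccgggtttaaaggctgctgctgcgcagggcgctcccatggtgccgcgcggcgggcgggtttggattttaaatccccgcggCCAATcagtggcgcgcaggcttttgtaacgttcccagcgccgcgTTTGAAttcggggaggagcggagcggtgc
The helicase genes MCM3 and MCM6, neither of them called, lie on the minus strand at chr6:52284743-52284942 and chr2:135876444-135876643. RRM1, with the largest difference of the replication genes, is not printed. In their stretches the capitals mark CCAAT boxes and E2F sites, searched as TTTCCCGC, TTTGGCGC, TTTCCCGG, TTCCCGCC or TTTCGCGC on either strand, with overlapping matches drawn as 1 run.
MCM3: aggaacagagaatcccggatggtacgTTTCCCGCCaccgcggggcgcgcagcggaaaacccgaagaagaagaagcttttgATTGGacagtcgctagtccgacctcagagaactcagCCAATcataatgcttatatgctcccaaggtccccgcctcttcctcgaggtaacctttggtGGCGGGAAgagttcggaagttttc
MCM6: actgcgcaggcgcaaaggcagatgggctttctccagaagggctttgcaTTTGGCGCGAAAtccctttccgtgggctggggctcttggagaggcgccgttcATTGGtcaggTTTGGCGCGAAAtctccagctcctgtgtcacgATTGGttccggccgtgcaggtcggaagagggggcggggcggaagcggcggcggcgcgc
The KIF11 stretch held a CCAAT box at -53 and a CHR at -28, counted in bases before the transcript start, and the PLK1 stretch held them at -73 and -29. The CENPF stretch held CCAAT boxes at -94, -58 and -33. The only CHR in the CENPF window lay behind the start, at position 41 with the first transcribed base as 1. The MCM3 stretch held CCAAT boxes at -120 and -84 and E2F sites at -174, -173 and -24. Its window also held a CCAAT box at -242, and an E2F site at -4 that crosses the start and is not in capitals. The MCM6 stretch held CCAAT boxes at -100 and -58 and E2F sites at -152, -148, -90 and -86. Its window also held a CHR at -246, before the stretch.

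The lists differed in which of these letters their promoters held, which is given as a description with no test. Promoter windows of 300 bases, from 250 before to 50 after the start, were matched for 44 of the 51 members, 26 of mitosis and 18 of replication. AURKA, TTK, TPX2, BIRC5, UBE2C, MCM4 and MCM5 had no entry. A CHR was present in a window of 21 of the 26 mitosis genes and 2 of the 18 replication genes, beside 19.5% of 27305 genes. An E2F site was present for 3 and 15 genes, beside 7.67% of all genes. A CCAAT box was present for 21 and 14, beside 39.7%. CHR and CCAAT box stood together for 17 mitosis genes and 2 replication genes, RRM1 and MCM6, beside 7.85%. Genes with several start sites had several windows, and a gene was counted once if any window held the letters. A match describes the sequence and is not evidence of binding in these cells.

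Mitosis genes with and without a CHR, read as TTTGAA or TTCGAA in the window, overlapped in their differences between the lines. Other forms of the element were not searched. The median difference was -0.41 over the 21 genes with a CHR, which ranged from -1.15 to 0.10, and -0.18 over the 5 without, which ranged from -0.54 to -0.07. CENPE and KIF20A, with differences of -0.54 and -0.53, had no CHR in the window. KIF23, PRC1 and ANLN had one, with differences of 0.10, 0.03 and 0.01.

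**Figure D2:**
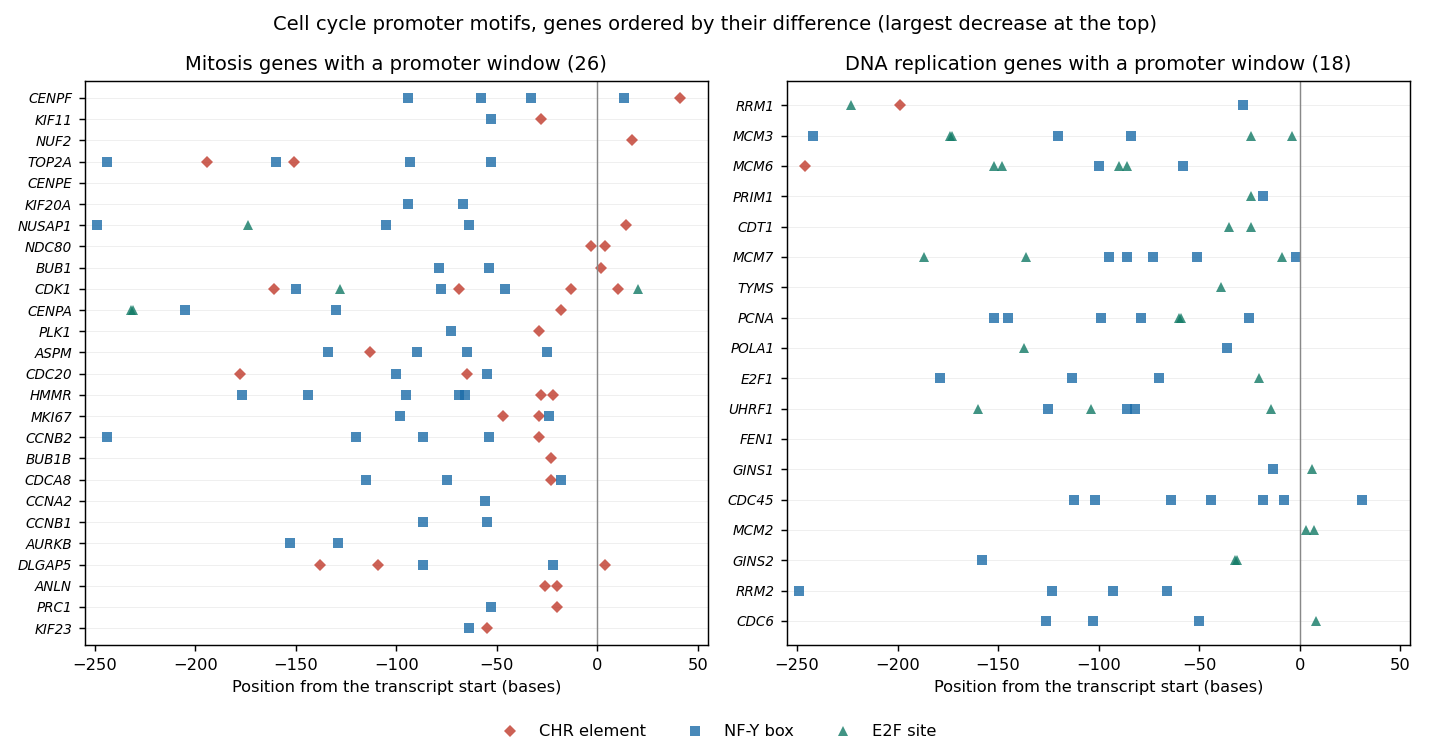
Positions of the searched motifs (horizontal axis, bases from the transcript start) in the promoter windows of 26 mitosis genes (left) and 18 replication genes (right), ordered by the difference between the lines with the largest decrease at the top. Diamonds are CHR elements, squares NF-Y boxes and triangles E2F sites, over all windows of a gene. CHR elements are frequent on the left (21 of 26 genes) and E2F sites on the right (15 of 18 genes).

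The kinetochore genes had the lowest median difference among the mitosis roles, -0.54 over 5 genes, with 4 of 5 lower on every MCF10.AT1-R array. CENPF, a large protein of the outer kinetochore that accumulates in G2, read 6.82 and 6.67 on the MCF10.AT1 arrays and 5.63, 5.42 and 5.73 on the MCF10.AT1-R arrays. The groups did not overlap, and their nearest arrays were 0.94 apart. CENPF fell by 1.15 on the log2 scale (SE 0.31, limma adjusted p = 0.0233), 2.22-fold. The call was lost without A01 (limma adjusted p = 0.418), without A02 (adjusted p = 0.245), without B02 (adjusted p = 0.0585) and without B03 (adjusted p = 0.0787).

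NUF2, a subunit of the NDC80 complex that holds microtubule ends, read 5.71 and 5.65 in MCF10.AT1 and 5.55, 4.51 and 4.47 in MCF10.AT1-R. B02 lay 0.09 below the nearest MCF10.AT1 array, and B03 and B04 far below it. The difference was -0.84 (SE 0.31, limma adjusted p = 0.259). Without B02 it was -1.19 and was called (limma adjusted p = 0.0496). NDC80, the partner of NUF2 in the complex, read 6.30 and 5.97 in MCF10.AT1 and 5.68, 5.32 and 5.92 in MCF10.AT1-R. NDC80 was lower on every MCF10.AT1-R array, with the lines 0.05 apart at their nearest. CENPE, a kinesin that carries chromosomes towards the spindle equator, read 6.05 and 6.26 in MCF10.AT1 and 5.62, 5.60 and 5.60 in MCF10.AT1-R. CENPA, the histone H3 variant of centromeres, read 4.88 and 4.75 beside 3.76, 4.61 and 4.81, so that the lines overlapped and B02 alone was far below.

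Spindle motors and microtubule-binding proteins had a median difference of -0.44 over 6 genes, and 4 of 6 were lower on every MCF10.AT1-R array. KIF11, the kinesin that pushes the spindle poles apart, read 7.27 and 7.22 in MCF10.AT1 and 6.71, 6.02 and 6.30 in MCF10.AT1-R. All MCF10.AT1-R arrays were lower, and they spread more widely than the MCF10.AT1 arrays. The difference was -0.90 (SE 0.31, limma adjusted p = 0.171), with a 95% interval from -1.46 to -0.35, and it was called with the trend (limma adjusted p = 0.000175). TPX2, which activates Aurora A on spindle microtubules, read 8.52 and 8.46 in MCF10.AT1 and 8.0, 7.99 and 8.01 in MCF10.AT1-R. The MCF10.AT1-R arrays of TPX2 were nearly equal, though neither fit with the main filter used this in its SE. The fit with the trend called TPX2 (limma adjusted p = 0.0121), and the main test with the common SD did not (adjusted p = 0.755). NUSAP1 (-0.50) and ASPM (-0.41), both microtubule-binding proteins of the spindle, were lower on every MCF10.AT1-R array. The arrays of HMMR (-0.31) and DLGAP5 (-0.07) overlapped.

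Both mitotic chromosome proteins were lower on every MCF10.AT1-R array. TOP2A, the topoisomerase that untangles sister chromatids, read 7.59 and 7.33 in MCF10.AT1 and 7.11, 6.47 and 6.78 in MCF10.AT1-R. The groups were 0.22 apart at their nearest arrays, and the difference was -0.67 (SE 0.31, limma adjusted p = 0.503). MKI67, which encodes the proliferation antigen Ki-67 on the surface of mitotic chromosomes, read 8.99 and 8.97 in MCF10.AT1 and 8.58, 8.61 and 8.86 in MCF10.AT1-R. The difference of MKI67 was -0.30, 1.23-fold, with a 95% interval from -0.72 to 0.13 (limma adjusted p = 0.839).

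All 5 genes of the spindle checkpoint and the anaphase-promoting complex were lower on every MCF10.AT1-R array, with differences from -0.48 to -0.21. They were the checkpoint kinases BUB1 (-0.48) and TTK (-0.36), the checkpoint protein BUB1B (-0.27), the activator CDC20 (-0.36) and the ubiquitin-conjugating enzyme UBE2C (-0.21). None was called in any of the fits above. Among the kinases and chromosomal passenger proteins, PLK1, CDCA8 and AURKA were lower on every MCF10.AT1-R array. PLK1, the Polo kinase of mitotic entry, read 10.32 and 10.33 in MCF10.AT1 and 9.96, 9.93 and 9.85 in MCF10.AT1-R. The groups did not overlap, and the nearest arrays were 0.35 apart. The difference was -0.41 with a 95% interval from -0.81 to -0.02, and it was called with the trend option only (limma adjusted p = 1.26e-05 with the main filter). AURKB (-0.07), the passenger complex kinase, and BIRC5 (-0.09), its partner survivin, overlapped between the lines.

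The cyclins and CDK1 had a median difference of -0.23 over 4 genes, ranging from -0.48 to -0.13. CCNB1, cyclin B1, read 9.27 and 9.23 in MCF10.AT1 and 9.21, 9.05 and 9.11 in MCF10.AT1-R. The arrays did not overlap, though the nearest were 0.03 apart. The difference was -0.13 with a 95% interval from -0.53 to 0.27. CCNB2 (-0.29) was also lower on every MCF10.AT1-R array, while CCNA2 (-0.18) and CDK1 (-0.48), the kinase itself, overlapped.

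The central spindle and cytokinesis genes were the exception among the mitosis roles, with a median difference of 0.02. KIF23, PRC1 and ANLN, which bundle the central spindle or build the cleavage furrow, overlapped between the lines, with differences of 0.10, 0.03 and 0.01. Those of PRC1 and ANLN were below 0 once the arrays were quantile normalized again. KIF20A, a kinesin that brings the passenger complex to the central spindle, was lower on every MCF10.AT1-R array, with 8.65 and 8.66 in MCF10.AT1 and 8.15, 8.10 and 8.11 in MCF10.AT1-R. The KIF20A difference of -0.53, 1.45-fold, was called with the trend (limma adjusted p = 0.00185).

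Among the replication genes, 5 of the 6 subunits of the MCM2-7 helicase were lower on every MCF10.AT1-R array. MCM3 read 7.08 and 7.17 in MCF10.AT1 and 6.74, 6.86 and 6.59 in MCF10.AT1-R. MCM4 read 6.47 and 6.64, and 6.20, 5.93 and 6.37. The differences of MCM3 and MCM4 were both -0.39, with 95% intervals from -0.81 to 0.03 and from -0.86 to 0.08. MCM5 read 6.36 and 6.75 in MCF10.AT1 and 6.12, 6.22 and 6.30 in MCF10.AT1-R, a difference of -0.35 that was -0.54 without A01 and -0.15 without A02. The MCF10.AT1 arrays of MCM5 were 0.39 apart, more than the 0.07 between the nearest arrays of the lines. MCM6 (-0.34) and MCM7 (-0.23) were lower on every MCF10.AT1-R array too. MCM2, of the same hexamer, read 6.87 and 6.75 in MCF10.AT1 and 6.83, 6.84 and 7.0 in MCF10.AT1-R, and overlapped with a difference of 0.08 and a 95% interval from -0.33 to 0.49. Without 1 array the MCM2 difference ranged from 0.015 (A02 left out) to 0.14 (A01 left out), and was 0.024 without B04. None of the 6 was called in any of these fits.

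The genes of nucleotide supply went both ways. RRM1, the large subunit of ribonucleotide reductase, read 8.39 and 8.27 in MCF10.AT1 and 7.92, 7.89 and 7.92 in MCF10.AT1-R. Its difference of -0.42 was the largest of the replication genes, with a 95% interval from -0.81 to -0.02, and was not called (limma adjusted p = 0.804, and 0.0700 with the trend). RRM2, the small subunit of the same enzyme, read 7.35 and 7.28 in MCF10.AT1 and 7.5, 7.39 and 7.55 in MCF10.AT1-R. Each MCF10.AT1-R array of RRM2 was above both MCF10.AT1 arrays, by a mean of 0.17 with a 95% interval from -0.24 to 0.57. TYMS, thymidylate synthase, was lower on every MCF10.AT1-R array with a difference of -0.22.

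The polymerase and clamp genes had a median difference of -0.13. PCNA, the sliding clamp, read 10.05 and 10.11 in MCF10.AT1 and 10.04, 9.81 and 9.98 in MCF10.AT1-R. The nearest arrays were 0.01 apart, so the groups barely separated, and the difference was -0.14 with a 95% interval from -0.55 to 0.28, and -0.07 without B03. POLA1 (-0.13), the catalytic subunit of DNA polymerase alpha, was lower on every MCF10.AT1-R array. PRIM1 (-0.30), the primase subunit, and FEN1 (-0.05), the flap endonuclease of lagging strands, overlapped.

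Origin licensing and helicase activation was the only replication role with a median above 0, at 0.07. CDC6, which loads the helicase, read 7.85 and 7.74 in MCF10.AT1 and 8.09, 7.99 and 8.10 in MCF10.AT1-R, above on every array by a mean of 0.27 with a 95% interval from -0.13 to 0.67. GINS2 (0.15), CDC45 (0.07) and GINS1 (-0.01), which activate the helicase, overlapped. CDT1 (-0.26), the loading partner of CDC6, overlapped as well. E2F1, the transcription factor of the G1 to S transition, read 3.65 and 3.81 in MCF10.AT1 and 3.67, 3.50 and 3.66 in MCF10.AT1-R, and the arrays overlapped with a difference of -0.12, which was -0.20 without A01, -0.045 without A02 and -0.066 without B03. UHRF1 (-0.09), which guides maintenance methylation behind the fork, overlapped too.

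Averaged over the genes of a list, the mitosis genes read 7.36 and 7.33 on the MCF10.AT1 arrays and 7.04, 6.87 and 7.03 on the MCF10.AT1-R arrays. The MCF10.AT1-R arrays were all lower, B03 the lowest, and the mean difference was -0.36. The replication genes averaged 6.71 and 6.71 in MCF10.AT1 and 6.57, 6.54 and 6.61 in MCF10.AT1-R, a mean difference of -0.14. B03 was the lowest MCF10.AT1-R array for 33 of the 51 members, 21 of mitosis and 12 of replication, and for 19126 of the 47805 symbols above the low-expression limit. Its positive controls were the lowest of the 5 arrays, and its hybridization controls the highest. The hybridization controls read 10.35 and 10.80 on the MCF10.AT1 arrays and 10.90, 11.33 and 10.83 on the MCF10.AT1-R arrays. They were thus higher on every MCF10.AT1-R array, by a mean of 0.44. The part of these controls in the differences was not tested. Without B03 the median difference was -0.26 for mitosis and -0.11 for replication.

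**Figure D3:**
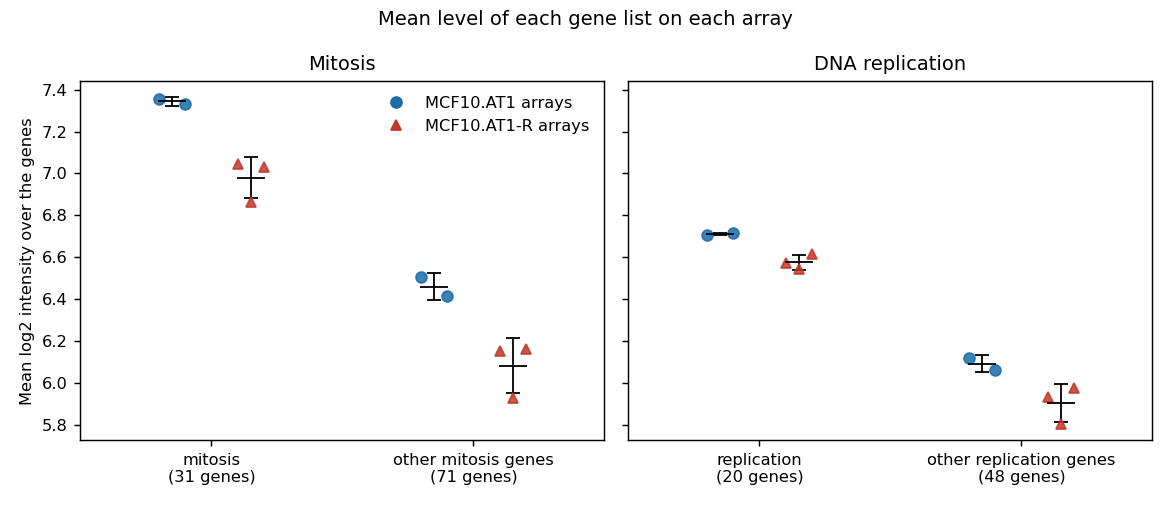
Mean log2 intensity over the genes of each list (vertical axis) on each array, for the 31 mitosis genes and 71 other mitosis genes (left) and the 20 replication genes and 48 other replication genes (right). Circles are MCF10.AT1 arrays, triangles MCF10.AT1-R arrays, and bars the mean and SD of the arrays. In all 4 lists every MCF10.AT1-R array lies below both MCF10.AT1 arrays.

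Lists of other genes of the same processes, none of them members, were read in the same way. Of 71 other mitosis genes, 51 were lower on every MCF10.AT1-R array, 2 were higher and 18 overlapped, with a median difference of -0.35. Of 48 other replication genes, 16 were lower, 1 was higher and 31 overlapped, with a median of -0.20. Both shares of lower genes, 71.8% and 33.3%, stood above the 13.8% of all symbols. In the main test 2 of 54 tested other mitosis genes were called, both lower, and 0 of 29 other replication genes. At an unadjusted p under 0.05 there were 15 of 54 and 4 of 29, beside the 8.91% of all tested symbols. With the trend these counts were 11 and 1, all lower.

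The called genes of the wider lists were NCAPD2 and KIF15. NCAPD2, a subunit of condensin, which compacts mitotic chromosomes, read 6.90 and 6.82 in MCF10.AT1 and 5.74, 5.28 and 5.73 in MCF10.AT1-R. The lines did not overlap, with 1.09 between their nearest arrays, and NCAPD2 fell by 1.28 (SE 0.31, limma adjusted p = 0.00626). KIF15, a motor that works beside KIF11 on the spindle, read 5.68 and 5.07 in MCF10.AT1 and 4.06, 4.21 and 4.39 in MCF10.AT1-R on 1 of its 8 probe sets, and fell by 1.15 (limma adjusted p = 0.0225). Averaged over its 8 probe sets KIF15 differed by -0.52 and was not called (adjusted p = 0.732). The call of NCAPD2 was lost without A01 (adjusted p = 0.209), A02 (0.160) or B03 (0.0505), and that of KIF15 without A01 (0.739), A02 (0.0658) or B02 (0.113).

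The regulators that sit above both lists, 17 genes of the E2F, RB and DREAM families, went both ways. Their mean was lower in MCF10.AT1-R for 10 and higher for 7. Only 13 were above the negative controls on all 5 arrays. Every MCF10.AT1-R array was lower for 6 of the 17 (35.3%), higher for 4 and overlapping for 7. Over all symbols 13.8% were lower and 13.7% higher in this way. Their median difference was -0.09, and it was 0.06 without A02 and 0.01 without B02. Of the 11 that were tested 0 were called, with 1 at an unadjusted p under 0.05, and 0 with the trend.

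**Figure D4:**
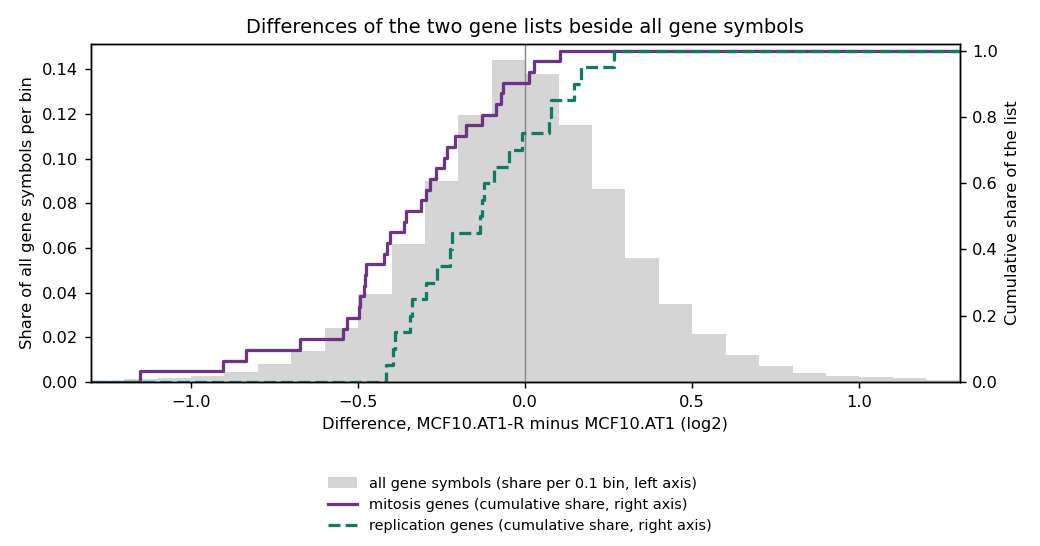
Distribution of the difference between the lines (horizontal axis, log2) over the symbols above the low-expression limit (grey, share per bin of 0.1, left axis) and cumulative share of the 31 mitosis genes (solid) and 20 replication genes (dashed) on the right axis. The grey distribution is centred near -0.01, and the medians of the lists are -0.36 and -0.13. Symbols beyond 1.3 on either side are not drawn.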

How the data were processed

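Total RNA of both cell lines was hybridised to Clariom D arrays. The authors made log2 values with RMA, which corrects background, equalises the quantiles of the arrays and summarises probes into probe sets, in the Bioconductor packages affy and oligo, and deposited them for all 6 arrays without their filter on low and invariant genes. The versions of these packages and the genome build are not given in the sources used here. Each array was placed in its line by the key of the study's plot of the arrays, since array names carry no replicate number. Of 138745 rows, 2995 were control probe sets.

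The lines were compared over 5 arrays in limma 3.58.1 (functions lmFit and eBayes, R 4.3.3), with Benjamini-Hochberg adjustment over all probe sets tested and FDR 5%. Tested were 51457 probe sets with a mean above the median (1.88) and an SD above the lowest 25% (0.18), limits chosen here because the study names none. The alternative with the low-expression filter alone tested 67875. Probe sets counted as above the negative controls exceeded their 95th percentile (2.99). Some of the cell type markers chosen are not reported here. KNL1, SGO1 and SGO2 were matched through older symbols. Values on every array are given for members past FDR 5%, the 4 with the largest difference per list, and MKI67, TOP2A, PCNA, MCM2, CCNB1 and E2F1, with others added after their values were seen. Genes of the wider lists are named where they passed. The members and lists were chosen with earlier results of these data known. The motifs were searched with Python 3 scripts in RefSeq promoter windows, with no test. The scripts for the fits were tested on simulated data. The alternatives were the arrays used, the filters, the variance model, the normalization, the probe sets of a gene and the threshold, and the counts without B03 were added after seeing the data. P-values refer to cultures of 1 parental and 1 resistant line. In the main test, and with the trend and the same filter, they rest on a spread pooled over probe sets. The spread of the single gene between cultures has no part in them.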

Additional observations from a re-analysis of the deposited data

How the results depend on the processing

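With A03 added back to the MCF10.AT1 arrays, every median and mean over a list changed sign: the medians became 1.04 for mitosis, 1.21 for replication, 0.83 for other mitosis genes, 0.93 for other replication genes and 0.73 for the regulators, and the means 1.10, 1.08, 0.85, 0.88 and 0.73. In that setting 0 mitosis genes and 0 other mitosis genes were called, and the differences of the named genes were 0.32 for CENPF, 1.04 for KIF11, 0.60 for NUF2, 0.96 for TOP2A, 1.04 for RRM1, 1.41 for MCM3, 0.53 for MCM4, 0.39 for MCM5, 1.65 for MKI67, 1.41 for PCNA, 1.31 for CCNB1, 0.64 for E2F1, 0.27 for NCAPD2 and 0.035 for KIF15. This setting adds 1 array whose positive controls are far below the rest. With limma's array weights A03 received a weight of 0.0679, A01 0.966 and A02 5.46, so that A02 dominated the MCF10.AT1 mean. The medians were then -0.24 for mitosis and -0.10 for replication, and the mean over the replication genes was -0.097. With these weights 2 other mitosis genes were called, and KIF15 was not among them (limma adjusted p = 0.0616). The low-expression filter alone, and no filter, called 0 mitosis genes and 0 other mitosis genes. The trend called 7 mitosis, 11 other mitosis and 1 other replication gene, and with the low-expression filter alone it called 5, 7 and 1. Averaging all probe sets of a symbol left 1 other mitosis gene called, and FDR 10% called 4. The cause of these changes was not tested. Leaving out 1 array in turn gave 0 to 1 mitosis genes called, a mitosis median of -0.38 to -0.26, 0 to 3 other mitosis genes called and a median of -0.11 to 0.059 over the E2F, RB family and DREAM regulators. The replication genes had 0 calls in every setting run. After a second quantile normalization or a shift to the same median the medians were -0.39 and -0.36 for mitosis and -0.16 and -0.14 for replication. No paired analysis was possible because the names of the arrays carry no replicate number that could be matched to the numbers of the labels. Precision was limited by having 2 arrays of one line and 3 of the other.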
